A study of Mus musculus with 20 samples.

Results

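Collagen genes were defined as every gene of the study whose symbol reads Col, a type number, the letter a and a chain number. 44 genes of the 19222 listed in either table met this definition. They were sorted by protein class into 11 fibrillar genes, 8 basement membrane genes, 9 FACIT genes (fibril-associated collagens with interrupted triple helices) and 16 others. The study measured poly(A) RNA of mouse ventricle in 20 libraries. At 6 months there were 4 libraries of Sorbs2 knockout mice given a Sorbs2 vector (KO+AAV), 5 of untreated Sorbs2 knockout mice (KO) and 5 of untreated wild-type mice (WT). At 6 weeks there were 3 libraries of untreated KO mice and 3 of untreated WT mice. The vector was AAV9-Tnnt2-Sorbs2, an adeno-associated virus that carries Sorbs2 behind the promoter of the cardiomyocyte troponin gene Tnnt2. It was injected on postnatal day 2, so it adds Sorbs2 from shortly after birth and mainly in heart muscle cells. No group was given an empty vector, and the labels name neither the sex of the mice nor the kind of knockout allele. The Sorbs2 protein links actin to the Z-disc and to the junctions between muscle cells.

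Collagens are built from 3 chains that wind into a triple helix, and the winding needs glycine at regular steps, 1 in every 3 residues. Fibrillar collagens such as types I and III form the tensile fibres between cardiac muscle cells, and FACIT collagens sit on the surface of those fibres. Type IV collagen forms the sheet of the basement membrane around each cardiomyocyte and capillary. In the heart, fibroblasts make most of the fibrillar collagen, while endothelial and mural cells also make basement membrane collagen.

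The repeat that makes a gene a collagen differs between the classes, and 10 glycine triplets of the longest uninterrupted stretch in each of 6 genes are shown for that reason. They were read from the GENCODE M21 transcripts of GRCm38, the assembly also called mm10, in coding direction from 5′ to 3′. Capitals mark the glycine codon that opens each triplet, and glycine codons at other places of a triplet stay in lower case.
Col1a2, codons 97 to 126: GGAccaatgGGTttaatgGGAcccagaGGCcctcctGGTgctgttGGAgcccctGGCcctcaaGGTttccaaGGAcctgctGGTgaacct
Col3a1, codons 164 to 193: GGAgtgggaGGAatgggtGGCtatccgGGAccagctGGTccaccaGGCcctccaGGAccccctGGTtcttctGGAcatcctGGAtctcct
Col4a1, codons 43 to 72: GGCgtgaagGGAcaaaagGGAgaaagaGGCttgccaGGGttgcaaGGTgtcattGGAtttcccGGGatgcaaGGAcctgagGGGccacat
Col8a1, codons 355 to 384: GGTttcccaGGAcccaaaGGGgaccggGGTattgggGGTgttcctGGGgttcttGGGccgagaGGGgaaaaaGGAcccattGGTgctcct
Col12a1, codons 2805 to 2834: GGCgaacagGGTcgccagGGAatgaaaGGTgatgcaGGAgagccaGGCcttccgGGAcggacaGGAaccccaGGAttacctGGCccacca
Col22a1, codons 1107 to 1136: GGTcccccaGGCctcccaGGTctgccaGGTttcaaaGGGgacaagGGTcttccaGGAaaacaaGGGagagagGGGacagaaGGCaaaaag
In the type IV gene Col4a1 the repeat is broken many times. The break below holds 2 codons between neighbouring stretches, at the lower-case run that lacks a capital.
Col4a1, codons 209 to 240: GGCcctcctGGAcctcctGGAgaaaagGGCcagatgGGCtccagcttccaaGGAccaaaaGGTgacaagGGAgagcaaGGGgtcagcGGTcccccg

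The longest stretch ran for 216 to 344 triplets in the 11 fibrillar genes (median 338). It ran for 30 to 66 triplets in the basement membrane genes (median 41), for 32 to 113 in the FACIT genes (median 57) and for 23 to 87 in the others (median 45). Fibrillar genes held 2 to 5 stretches of at least 3 triplets, whereas basement membrane genes held 13 to 27. In Col12a1 the repeat made up only 8.12% of all codons, against 63.2% in Col22a1 and 77.2% in Col1a2. Col4a1 (minus strand, start at 11312826) and Col4a2 (plus strand, start at 11312805) lie head to head on chromosome 8 and overlap at their annotated starts. Col4a5 and Col4a6 lie head to head on chromosome X. The other genes named most often below are Col12a1 (chromosome 9, 79598991 to 79718831, minus strand), Col22a1 (chromosome 15, 71795795 to 72034227, minus strand), Col11a1 (chromosome 3, 114030540 to 114220718, plus strand) and Col1a1 (chromosome 11, 94936224 to 94953042, plus strand).

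Values are the authors' normalised counts, in which each library was scaled by the authors for depth. The sums over all genes ran between 11359100 and 13670300 at 6 months and between 6705130 and 8240290 at 6 weeks. The reads behind a value were not known. Sorbs2 itself stood at 4696, 5753, 15690.3 and 17923 normalised counts in KO+AAV hearts, at 1648, 612, 593, 494 and 1755 in KO hearts and at 5352, 5398, 5136, 4562 and 4753 in WT hearts. At 6 weeks it stood at 365, 334 and 276 in KO hearts and 1409, 1751 and 1989.8 in WT hearts. Every KO library lay below every WT library of its age, and the 4 KO+AAV libraries ran from within the WT range to far above it. Xist, the transcript of an inactive X chromosome, marked 2 of 4 KO+AAV libraries, 0 of 5 KO libraries and 2 of 5 WT libraries at 6 months, and 1 of 3 in both groups at 6 weeks. Sex therefore differed in its mix between the 6-month groups. Calls that a sex term or leaving out the Xist-marked libraries took away are given with each comparison. Atrial genes were abundant in all 6 libraries of the 6-week set, whose label is left ventricle: Myl7, the atrial myosin light chain, was at 20062 to 35243 in KO hearts and 22450.1 to 32889 in WT hearts. At 6 months it was at 0.909 to 7.82 in KO+AAV hearts, 0.857 to 459 in KO hearts and 0.974 to 47.5 in WT hearts. Tests used log2(value + 1) with limma across all genes that reached 10 normalised counts in at least 4 libraries (6 months) or 3 libraries (6 weeks). A gene was called at a Benjamini-Hochberg adjusted p under 0.05, and a log2 change on this scale understates the change of low genes.

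Collagen transcripts made up about 2 times the share of the library in KO hearts that they did in WT hearts at 6 months, and vector-treated hearts stood near WT hearts. Over all collagen genes, the sum was 0.160%, 0.225%, 0.245% and 0.235% of the normalised counts in KO+AAV hearts, 0.441%, 0.388%, 0.482%, 0.346% and 0.507% in KO hearts, and 0.181%, 0.212%, 0.226%, 0.213% and 0.182% in WT hearts. Each KO library lay above every library of the other groups, and the KO+AAV and WT libraries overlapped. The group means were 0.216% ± 0.0383 (SD, n = 4) in KO+AAV hearts, 0.433% ± 0.0661 (n = 5) in KO hearts and 0.202% ± 0.0201 (n = 5) in WT hearts. Fibrillar genes took 0.0676% in KO+AAV hearts, 0.152% in KO hearts and 0.0625% in WT hearts, and basement membrane genes took 0.116% in KO+AAV hearts, 0.217% in KO hearts and 0.111% in WT hearts. FACIT genes took 0.00397% in KO+AAV hearts, 0.00993% in KO hearts and 0.00281% in WT hearts, and the remaining genes 0.0287% in KO+AAV hearts, 0.0538% in KO hearts and 0.0258% in WT hearts. Of the 24078 normalised counts by which the mean KO heart exceeded the mean WT heart over all collagens, Col4a1 supplied 22.0%, Col4a2 13.1%, Col3a1 12.7%, Col1a2 11.7% and Col1a1 10.3%. These shares describe the libraries and were not tested. In bulk tissue, more collagen RNA per cell and more cells that make collagen cannot be told apart.

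**Figure D1:**
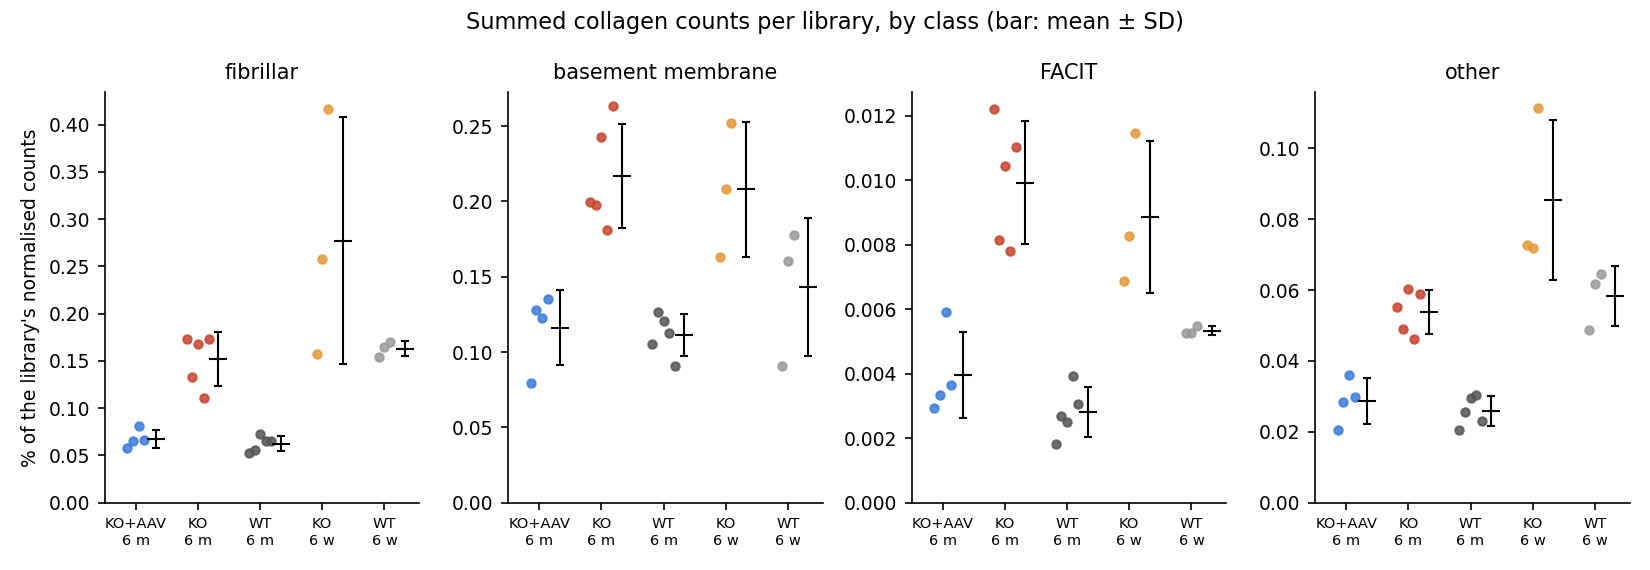
Share of each library's normalised counts taken by each collagen class (percent, vertical axis, a panel per class); points are libraries, bars give the mean ± SD, and groups run KO+AAV, KO and WT at 6 months, then KO and WT at 6 weeks, from tables normalised apart. In the fibrillar panel the 6-month means are 0.0676% in KO+AAV hearts, 0.152% in KO hearts and 0.0625% in WT hearts.

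In KO against WT hearts at 6 months, 23 of the 33 collagen genes that could be tested rose, 1 fell and 9 did not pass. Over all 13419 genes tested, 16.3% were called, 8.13% higher and 8.18% lower. With all libraries set to equal totals, the split over all genes was 13.2% higher and 4.87% lower, with 23 collagen genes higher and 1 lower. The rise ran through all 4 classes: 6 of 9 fibrillar, 7 of 8 basement membrane, 5 of 6 FACIT and 5 of 10 other genes rose. The median log2 change of the 33 genes was 1.05, and that of all tested genes was 0.00. In 22 of the 33 genes every KO library lay above every WT library, against 6.56% of all tested genes. None lay wholly below, against 7.29%. 3 of the 33 genes, Col8a2, Col9a2 and Col11a1, reached the minimum level only through the KO libraries, which fixed their direction. Without them 20 of 30 genes were higher (5 of 8 fibrillar, 7 of 8 basement membrane, 4 of 5 FACIT and 4 of 9 other genes), with a median change of 0.97, and 19 of 30 lay wholly above the WT libraries. The 10 collagen genes not tested were Col2a1, Col6a4, Col6a5, Col9a1, Col9a3, Col17a1, Col19a1, Col24a1, Col25a1 and Col26a1, none of which exceeded 16.4 normalised counts in any library of that age. Col10a1 was listed in the 6-week table alone.

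**Figure D2:**
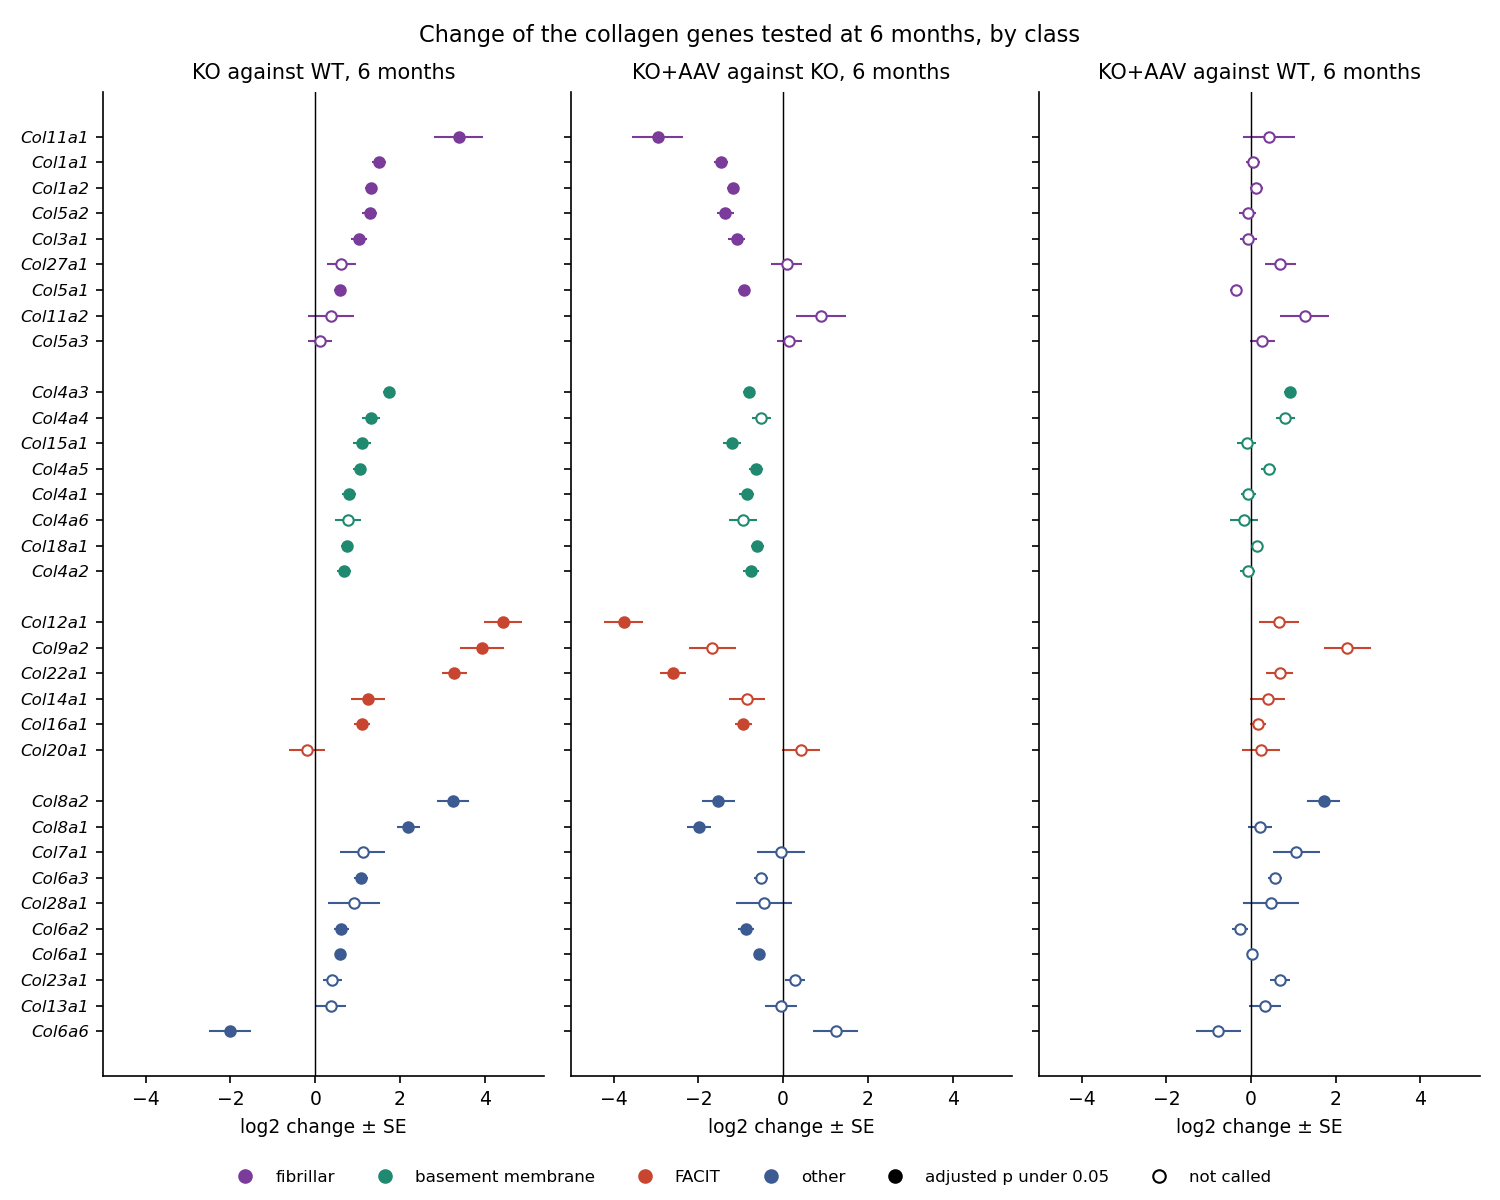
Log2 change of each tested collagen gene at 6 months, by class, in a panel each for KO against WT, KO+AAV against KO and KO+AAV against WT; horizontal bars are standard errors and filled points passed the adjusted threshold. Of the filled points, 23 stand to the right and 1, Col6a6, to the left for KO against WT, 19 stand to the left for KO+AAV against KO, and 2 stand to the right for KO+AAV against WT.

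The chains of the major cardiac fibres rose. Col1a1, the alpha 1 chain of type I collagen, had 1206, 1182, 1659 and 1312 normalised counts in KO+AAV hearts, 4471, 2869.7, 3736, 2817 and 4971 in KO hearts, and 1194, 1240.3, 1504, 1212 and 1301 in WT hearts. The lowest KO library was above the highest of both other groups, which overlapped each other. The log2 change in KO against WT hearts was 1.52 (SE 0.16, adjusted p = 1.98e-05). Col1a2, its partner chain, had 2059, 2046, 2131 and 1872 in KO+AAV hearts, 6021, 3635, 4591, 3888 and 5289.6 in KO hearts, and 1686, 2080.3, 2142, 1697 and 1739 in WT hearts. Its change was 1.31 (SE 0.14, adjusted p = 2e-05), with the same separation of the KO libraries. Col3a1, the single chain of type III collagen, had 2092, 2271, 3902 and 3025 in KO+AAV hearts, 5912, 5991, 7238, 4324 and 6228 in KO hearts, and 2517, 2369, 3481, 3035 and 3039.8 in WT hearts. It rose by 1.03 in KO against WT hearts (SE 0.18, adjusted p = 0.00112), and again no library of the other groups reached the lowest KO library.

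Type V collagen starts and limits fibre growth, and its 3 genes did not move alike. Col5a2 had 409, 385, 641 and 495 normalised counts in KO+AAV hearts, 1488, 1093, 1299, 916 and 1394 in KO hearts, and 356, 480.2, 507, 537 and 670.2 in WT hearts. It rose by 1.29 (SE 0.19, adjusted p = 0.000236). Col5a1 had 526, 587, 687 and 694 in KO+AAV hearts, 1167, 1087, 1344, 1039 and 1311 in KO hearts, and 761, 878, 947, 800.3 and 623 in WT hearts, a rise of 0.58 (SE 0.13, adjusted p = 0.00735, and 0.0573 without Xist-marked libraries). Col5a3 had 861, 975, 511 and 421 in KO+AAV hearts, 613, 638, 671, 424 and 628 in KO hearts, and 618, 327, 378, 931 and 652 in WT hearts, with overlapping groups and a change of 0.12 (adjusted p = 0.845). Col11a1, a fibril-starting chain best known from cartilage, was nearly silent outside KO hearts. It had 2.59, 1.28, 3.83 and 0 in KO+AAV hearts, 21.3, 14.6, 25.0, 16.3 and 17.2 in KO hearts, and 0, 4.74, 0.942, 1.02 and 0 in WT hearts. Its log2 change of 3.39 (SE 0.57, adjusted p = 0.000814) rests on low values. Col11a1 passed the filter only through the KO libraries, which fixed its direction. Col11a2 and Col27a1 had changes of 0.38 and 0.61 and did not pass (adjusted p = 0.729 and 0.267).

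All 6 chains of type IV collagen were expressed, and they form a common network and rarer ones. Col4a1 and Col4a2, the common pair, were the most abundant collagens per kilobase of transcript at 6 months. Col4a1 had 4818, 7331, 7124 and 8132 normalised counts in KO+AAV hearts, 11559, 11341, 13679.5, 9736 and 15548 in KO hearts, and 7048, 8286, 7388, 7046 and 5617 in WT hearts. Col4a2 had 3709, 6071, 4768 and 5615 in KO+AAV hearts, 7278, 7782, 9589, 7622 and 10044 in KO hearts, and 5757, 6369, 5518, 5041 and 3853 in WT hearts. Both rose, Col4a1 by 0.80 (SE 0.17, adjusted p = 0.00431) and Col4a2 by 0.68 (SE 0.17, adjusted p = 0.0112), and in both the KO libraries stood apart from WT libraries. The Col4a2 call was lost when Xist-marked libraries were left out (adjusted p = 0.0539).

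Col4a3, Col4a4 and Col4a5 form the network known from kidney glomeruli, and all 3 rose. Col4a3 had 101, 97.0, 99.7 and 106 normalised counts in KO+AAV hearts, 206, 180.3, 168, 163 and 174 in KO hearts, and 43.9, 56.0, 55.6, 47.1 and 63.0 in WT hearts. The 3 groups did not overlap, and the change in KO against WT hearts was 1.73 (SE 0.13, adjusted p = 1.02e-06). Col4a4 had 106, 115, 130.4 and 147 in KO+AAV hearts, 161, 163, 161, 215 and 189.6 in KO hearts, and 53.7, 91.1, 95.2, 85.1 and 43.4 in WT hearts. Its 3 groups did not overlap either, and it rose by 1.32 (SE 0.21, adjusted p = 0.00051). Col4a5 had 666, 866, 709.6 and 517 in KO+AAV hearts, 1158, 882, 909.6, 1207 and 1165 in KO hearts, and 375, 600.3, 545, 494 and 566 in WT hearts, a rise of 1.05 (SE 0.16, adjusted p = 0.00041). For Col4a3, 5.65% of its exon length is overlapped by a gene on the opposite strand, and the counting's strand setting is not given. Col4a6, the last chain, had 22.0, 21.7, 26.8 and 21.2 in KO+AAV hearts, 36.3, 42.9, 43.3, 64.2 and 42.7 in KO hearts, and 14.6, 27.5, 22.6, 19.5 and 64.0 in WT hearts, and did not pass (change 0.78, adjusted p = 0.11). Types XV and XVIII, which sit in the basement membrane zone and release fragments known to restrain vessel growth, rose as well. Col15a1 had 690.1, 966, 1649.8 and 1515 in KO+AAV hearts, 2348, 2329.6, 2686, 2793 and 3045 in KO hearts, and 949.6, 1196, 1246, 1527 and 1253 in WT hearts (change 1.10, SE 0.21, adjusted p = 0.00171). Col18a1 had 252, 191, 219.7 and 223 in KO+AAV hearts, 363, 259, 361, 303 and 419 in KO hearts, and 188, 198, 209, 184 and 221 in WT hearts (change 0.75, SE 0.14, adjusted p = 0.00152).

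FACIT genes held the widest changes. Col12a1 encodes the long chain that decorates fibres in tissue under load. It had 12.9, 23.0, 25.9 and 14.7 normalised counts in KO+AAV hearts, 361, 214, 311, 165 and 318 in KO hearts, and 12.7, 23.7, 14.1, 16.4 and 2.07 in WT hearts. The lowest KO library was several times the highest of the other groups, and the log2 change of 4.43 (SE 0.44, adjusted p = 9.96e-06) was the largest of the 33 genes. Col22a1, a collagen of muscle and tendon junctions, had 23.3, 29.3, 47.0 and 18.4 in KO+AAV hearts, 255, 106, 164, 181 and 201 in KO hearts, and 21.5, 18.0, 15.1, 10.2 and 23.8 in WT hearts. It rose by 3.28 (SE 0.29, adjusted p = 2.56e-06), with KO libraries clear of both other groups. Col9a2, a chain of the cartilage FACIT type IX, had 7.77, 21.7, 25.9 and 7.36 in KO+AAV hearts, 60.1, 32.2, 52.9, 30.5 and 60.8 in KO hearts, and 0, 0.951, 2.83, 3.08 and 7.22 in WT hearts. It rose by 3.94 (SE 0.52, adjusted p = 0.000118), while its partner chains Col9a1 and Col9a3 were too low to test, at most 1.28 and 15.3 in any library. Col9a2 passed the filter only through the KO libraries, which fixed its direction.

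Col16a1 and Col14a1, further FACIT genes, rose as well. Col16a1 had 126, 140.3, 172 and 142 normalised counts in KO+AAV hearts, 401, 199.8, 271, 224 and 332 in KO hearts, and 111, 124, 124, 122 and 166 in WT hearts (change 1.10, SE 0.18, adjusted p = 0.000737). Col14a1, which coats fibres and is common in resting fibroblasts, had 139, 82.9, 385 and 235 in KO+AAV hearts, 281, 359.6, 350.1, 338 and 308 in KO hearts, and 56.6, 149, 131, 307 and 141 in WT hearts. Its groups overlapped through WT 4. The call was marginal (change 1.24, SE 0.40, adjusted p = 0.0423) and was lost when any 1 of the KO libraries or any WT library but WT 4 was left out, with adjusted p up to 0.115 over the alternatives. Col20a1 had a change of -0.19 (adjusted p = 0.837).

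**Figure D3:**
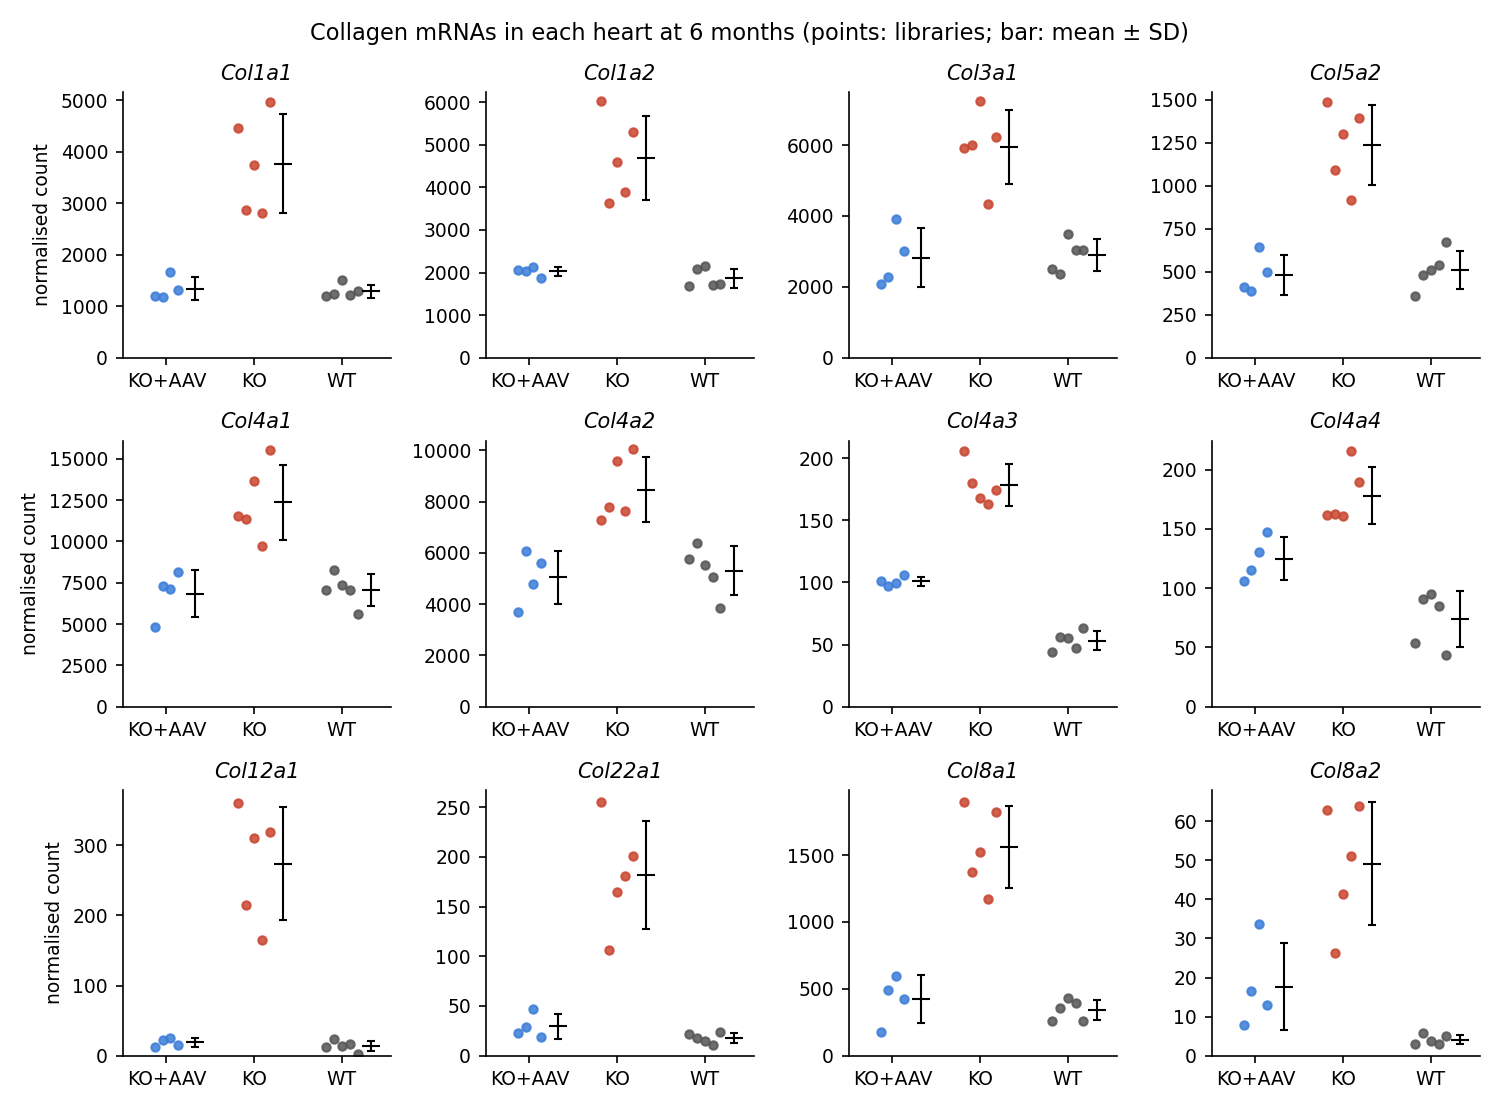
Normalised counts of 12 collagen genes at 6 months (vertical axes from 0, a scale per panel); points are libraries, bars give the mean ± SD, and groups run KO+AAV, KO and WT. Col12a1 lies at 165 to 361 in KO hearts and at 2.07 to 25.9 in the other hearts, and Col4a3 shows 3 separate groups.

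Type VIII collagen is a short-chain network collagen of vessel walls and remodelling matrix, and both of its chains rose. Col8a1 had 177, 494, 598 and 421 normalised counts in KO+AAV hearts, 1901, 1371, 1525, 1173 and 1825 in KO hearts, and 262, 353, 433, 395 and 261 in WT hearts (change 2.20, SE 0.27, adjusted p = 5.87e-05). Col8a2 had 7.77, 16.6, 33.6 and 12.9 in KO+AAV hearts, 62.9, 26.3, 41.4, 51.2 and 64.0 in KO hearts, and 2.93, 5.70, 3.77, 3.08 and 5.16 in WT hearts (change 3.26, SE 0.37, adjusted p = 2.83e-05). KO libraries lay above all WT libraries in both. Col8a2 passed the filter only through the KO libraries, which fixed its direction, so its rise adds no support to that of Col8a1. The stretches just upstream of the starts of both genes are shown, 5′ to 3′ on the gene's strand, from RefSeq on GRCm38.p6. Capitals mark GGGCGG (the GC box), CAGACA (the SMAD-binding letters) and their reverse complements.
Col8a1, chr16:57754738-57754987, minus strand: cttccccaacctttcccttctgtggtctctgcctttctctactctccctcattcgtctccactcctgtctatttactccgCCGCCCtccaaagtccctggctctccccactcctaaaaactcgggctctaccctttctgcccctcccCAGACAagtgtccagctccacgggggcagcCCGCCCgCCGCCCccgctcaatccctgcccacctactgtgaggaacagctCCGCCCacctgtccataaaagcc
Col8a2, chr4:126286544-126286793, plus strand: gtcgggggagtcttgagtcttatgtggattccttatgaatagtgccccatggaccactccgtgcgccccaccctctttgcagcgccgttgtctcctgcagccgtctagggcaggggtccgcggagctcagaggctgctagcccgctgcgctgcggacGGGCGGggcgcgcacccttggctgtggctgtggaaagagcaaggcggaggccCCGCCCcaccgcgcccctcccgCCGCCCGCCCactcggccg
On both strands, GGGCGG stood in 57.9% of 38 such windows of 35 collagen genes and in 32.7% of all 32851 windows. CAGACA stood in 23.7% of the collagen windows and 17.1% of all, CCAAT in 34.2% of the collagen windows and 33.8% of all, TATAAA in 13.2% of the collagen windows and 12.4% of all, and GGAATG, the TEAD-binding letters, in 10.5% of the collagen windows and 12.6% of all. These matches describe the letters only.

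Type VI collagen forms beaded filaments around cells. Col6a1 had 1069.6, 1172, 1350.5 and 1169.7 normalised counts in KO+AAV hearts, 1704, 1604, 2031, 1639.5 and 1789.8 in KO hearts, and 1007, 1151, 1256, 1372 and 1053 in WT hearts. Col6a2 had 689, 801, 1443 and 1242 in KO+AAV hearts, 1668, 1786, 2042, 1757 and 1899.9 in KO hearts, and 1066, 1264, 1334, 1333 and 1007 in WT hearts. Col6a3 had 488, 748, 734 and 572 in KO+AAV hearts, 877, 765, 1019, 826 and 1038 in KO hearts, and 342, 363, 446, 561 and 436 in WT hearts. The 3 main chains rose by 0.59 (Col6a1, adjusted p = 0.00248), 0.61 (Col6a2, adjusted p = 0.0265, but 0.0597 with a sex term and up to 0.0736 over the alternatives) and 1.08 (Col6a3, adjusted p = 0.000266), and KO libraries were above all WT libraries in each. Col6a6, an alternative to Col6a3 in type VI, went the other way. It had 57.0, 31.9, 53.7 and 69.99 in KO+AAV hearts, 6.204, 17.5, 41.4, 55.5 and 15.6 in KO hearts, and 55.6, 177, 127, 101 and 42.3 in WT hearts, with overlapping groups. It fell by 2.02 on the log2 scale (SE 0.50, adjusted p = 0.0117), and the call was lost without KO 1 and KO 5 together (adjusted p = 0.0824). Col6a6 shares 3.12% of its 75-base words with Col6a5. Of the remaining genes, Col7a1, Col13a1, Col23a1 and Col28a1 had changes of 1.13, 0.38, 0.41 and 0.91 and did not pass.

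Ordered by mean level per kilobase of transcript at 6 months, Col4a1 (1870.4), Col4a2 (1312), Col3a1 (1067), Col1a2 (876) and Col1a1 (636) led in KO hearts. In WT hearts the order was Col4a1 (1069.8), Col4a2 (823), Col3a1 (519), Col1a2 (349), Col6a2 (304), Col6a1 (285), Col15a1 (239) and Col1a1 (218). Col1a1 thus ranked 5th in KO hearts and 8th in WT hearts, and Col8a1, at 305 per kilobase in KO hearts, ranked 9th there. Ranks of neighbours whose libraries overlap, such as Col6a2 and Col6a1, do not differ beyond their spread. At 6 weeks the order in KO hearts was Col1a2 (1211), Col4a1 (1096), Col3a1 (1057), Col1a1 (712) and Col4a2 (645), and in WT hearts it was Col4a1 (766), Col3a1 (659), Col1a2 (652), Col4a2 (449) and Col1a1 (389). The 3 KO libraries of that age spread widely, from 4180 to 9570 normalised counts for Col1a2 and from 6488 to 8133 for Col4a1. The order of these 2 genes in KO hearts therefore does not go beyond their spread.

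Ratios between chains within each library were compared at both ages. At 6 months the ratio of Col5a1 to Col1a1 was 0.415 to 0.530 in KO+AAV hearts, 0.261 to 0.379 in KO hearts and 0.479 to 0.708 in WT hearts. That of Col4a1 to Col1a1 was 3.99 to 6.197 in KO+AAV hearts, 2.59 to 3.95 in KO hearts and 4.32 to 6.68 in WT hearts. In KO hearts both lay wholly below WT hearts, by 0.94 and 0.72 on the log2 scale, so Col1a1 stood higher against both partners than in WT hearts. Col1a1 is the denominator of both ratios, so they are not separate results. The ratio of Col12a1 to Col14a1 was 0.0667 to 0.286 in KO+AAV hearts, 0.490 to 1.28 in KO hearts and 0.0215 to 0.238 in WT hearts, a difference of 3.19 on the log2 scale between KO and WT hearts. KO+AAV hearts differed from KO hearts by 0.54 (Col5a1 to Col1a1), 0.61 (Col4a1 to Col1a1) and -2.91 (Col12a1 to Col14a1). Each of these 6 differences had p = 0.00794 in an exact two-sided permutation test, the smallest that the test allows, and an adjusted p of 0.0317 over 24 tests. Both comparisons use the same KO libraries, so the 6 differences are not separate evidence. Leaving out any single KO or KO+AAV library that a comparison uses put its adjusted p between 0.0535 and 0.143, and leaving out a single WT library left it at 0.0317. With fewer libraries the smallest p that the test allows can rise, and the adjustment is shared over the 24 tests. These adjusted p therefore cannot show how much a single library matters. Between chains of 1 molecule, the log2 ratio differed between KO and WT hearts by 0.21 for Col1a1 to Col1a2 (adjusted p = 0.0714), 0.12 for Col4a1 to Col4a2 (adjusted p = 0.226) and -0.02 for Col6a1 to Col6a2 (adjusted p = 0.733), by the same exact test. For Col8a1 to Col8a2 the difference was -1.06 (adjusted p = 0.0544, exact test). At 6 weeks the ratio of Col5a1 to Col1a1 was 0.222 to 0.284 in KO hearts and 0.347 to 0.415 in WT hearts, again without overlap (difference -0.63, p = 0.1 in the exact test, the smallest it allows there, adjusted p = 0.19). That of Col4a1 to Col1a1 was 1.25 to 2.31 in KO hearts and 1.42 to 2.59 in WT hearts (difference -0.21, adjusted p = 0.632 by the exact test). That of Col12a1 to Col14a1 was 0.099 to 0.172 in KO hearts and 0.0647 to 0.252 in WT hearts (difference 0.01, adjusted p = 1 by the exact test).

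**Figure D4:**
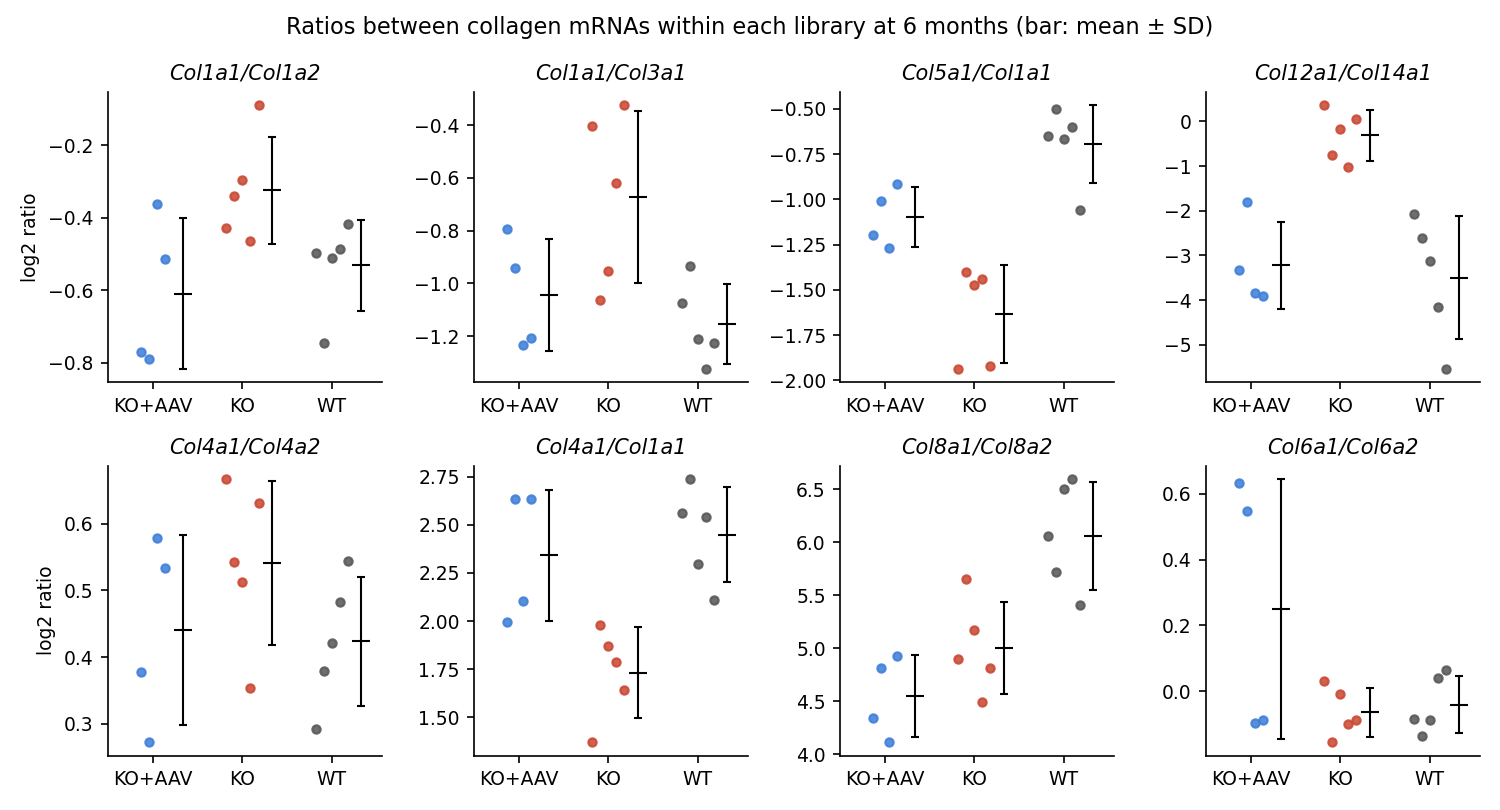
Log2 ratio of 2 collagen genes within each library at 6 months (vertical axes, a panel per ratio and a scale per panel); points are libraries, bars give the mean ± SD, and groups run KO+AAV, KO and WT. The log2 ratio of Col12a1 to Col14a1 averages -3.22 in KO+AAV hearts, -0.31 in KO hearts and -3.50 in WT hearts.

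With the vector, 19 of the 33 tested collagen genes were lower than in untreated KO hearts at 6 months, 0 were higher and 14 did not pass. Over all tested genes 11.2% were called, 5.69% lower and 5.55% higher, or 7.58% lower and 3.89% higher at equal totals. With equal totals 20 of 34 collagen genes were lower and 0 higher. At an unadjusted p under 0.05 limma gave 24 of the 33 genes, 1 of them higher, against 29.6% of all tested genes. The median log2 change was -0.86 over the 33 genes and 0.00 over all tested genes, and 22 of the 33 lay wholly below the KO libraries, against 7.44% of all tested genes. This comparison uses the same KO libraries as the knockout comparison, so the directions of the 2 are not separate evidence. Leaving aside genes that passed the filter through the KO libraries alone, the largest falls were those of Col12a1 (-3.77, SE 0.47, adjusted p = 0.000383), Col22a1 (-2.61, SE 0.31, adjusted p = 0.000383) and Col8a1 (-1.99, SE 0.29, adjusted p = 0.000996). Among the main fibre chains, the changes were -1.47 for Col1a1, -1.18 for Col1a2, -1.10 for Col3a1, -1.36 for Col5a2 and -0.93 for Col5a1, all called. In the basement membrane group, Col4a1 (-0.86), Col4a2 (-0.76), Col4a3 (-0.81), Col4a5 (-0.64), Col15a1 (-1.21) and Col18a1 (-0.61) fell. Col8a2 (-1.54), Col16a1 (-0.94), Col6a1 (-0.56) and Col6a2 (-0.87) fell as well. Genes that did not pass include Col9a2 (-1.67, adjusted p = 0.0641), Col6a3 (-0.52, adjusted p = 0.0576), Col4a4 (-0.51, adjusted p = 0.141), Col14a1 (-0.86, adjusted p = 0.184) and Col6a6 (1.24, adjusted p = 0.137). Without Col8a2, Col9a2 and Col11a1, whose place above the filter rests on the KO libraries, 17 of 30 genes were lower, 20 of 30 lay wholly below and the median change was -0.79. The count at an unadjusted limma p was not made without them. Of these 3, Col11a1 had a change of -2.96 (SE 0.61, adjusted p = 0.00675). Without the Xist-marked libraries, 2 KO+AAV libraries remained and 12 genes were called lower. The calls lost were those of Col16a1 (adjusted p = 0.0649), Col18a1 (0.0851), Col4a1 (0.108), Col4a2 (0.147), Col4a5 (0.178), Col6a1 (0.0684) and Col8a2 (0.0627). With a sex term 16 were called lower, and Col4a2 (adjusted p = 0.0716), Col4a5 (0.0713) and Col8a2 (0.0661) were lost.

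Collagen levels also differed among the 4 KO+AAV libraries, as Sorbs2 did. KO+AAV 3 was the highest of the 4 in 16 of the 33 genes, whereas KO+AAV 1 and KO+AAV 4 were each the lowest in 13. KO+AAV 2 was the highest in 9 and the lowest in 7. Sorbs2 was 4696, 5753, 15690.3 and 17923 in KO+AAV 1 to 4, and the summed collagen share was 0.160%, 0.225%, 0.245% and 0.235%. Among KO hearts, KO 1 and KO 5 held the most Sorbs2 (1648 and 1755) and were the highest in 9 and 11 genes. KO 2, KO 3 and KO 4 were the highest in 2, 6 and 5. A relation of collagen levels to Sorbs2 was not tested.

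Against WT hearts, 2 of the 33 collagen genes were higher in KO+AAV hearts, 0 were lower and 31 did not pass. Over all tested genes 1.33% were called, 0.611% higher and 0.715% lower, or 1.18% higher and 0.611% lower at equal totals. With equal totals 3 of 34 collagen genes were higher and 0 lower. At an unadjusted p under 0.05 limma gave 10 of the 33 genes, 9 of them higher, against 18.3% of all tested genes and 9.36% higher. Col4a3 stood at 97.0 to 106 normalised counts in KO+AAV hearts and 43.9 to 63.0 in WT hearts (change 0.92, SE 0.14, adjusted p = 0.00326). Col8a2 stood at 7.77 to 33.6 in KO+AAV hearts and 2.93 to 5.70 in WT hearts (change 1.72, SE 0.39, adjusted p = 0.042, up to 0.158 over the alternatives and 0.0535 with a sex term), and it passed the filter only through the KO libraries. Without Xist-marked libraries neither was called (adjusted p = 0.0804 for Col4a3). Col4a4 and Col9a2 also lay wholly above WT hearts, with adjusted p of 0.0824 and 0.0564, which makes 4 of 33 genes against 2.73% of all tested genes. None lay wholly below, against 2.67%. Without Col8a2, Col9a2 and Col11a1, which passed the filter only through the KO libraries, 1 of 30 genes was higher and 2 lay wholly above. Col1a1 had 0.05 (95% interval -0.32 to 0.41), Col3a1 -0.06 (-0.47 to 0.35) and Col4a1 -0.06 (-0.44 to 0.32), so differences within these bounds could not be told from 0 with these libraries. The intervals of Col6a3 (change 0.56, 0.21 to 0.92), Col4a5 (0.41, 0.05 to 0.78) and Col5a1 (-0.36, -0.66 to -0.06) left out 0, and none of the 3 passed (adjusted p = 0.107, 0.232 and 0.214).

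At 6 weeks no collagen gene passed in KO against WT hearts. By limma, 0 of 34 tested genes were called and 9 had an unadjusted p under 0.05, 8 of them higher. Over all 13242 tested genes 0.589% were called, and 15.4% had an unadjusted p under 0.05, 8.03% higher. The median log2 change was 0.51 over the 34 genes, against 0.01 over all tested genes. 11 genes lay wholly above the WT libraries, against 10.9% of all tested genes, and 1, Col5a3, lay wholly below, against 10.3%. 6 of the 34 genes (Col8a2, Col11a1, Col13a1, Col22a1, Col26a1 and Col28a1) reached the minimum level only through the KO libraries, which favoured their rise. Over the other 28 the median was 0.31 and 7 lay wholly above. The counts at an unadjusted limma p under 0.05 include these 6 genes and were not made without them.

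The size of the 6-week difference depended on single libraries. Col1a1 had 2806, 3351 and 6509 normalised counts in KO hearts and 2338, 2352 and 2234 in WT hearts. Col1a2 had 4180.1, 5679.6 and 9569.7 in KO hearts and 3496, 3770.2 and 3192 in WT hearts. Col3a1 had 2938, 6032 and 8680.2 in KO hearts and 4492, 3325 and 3181 in WT hearts. The last of the 3 values belongs to library KO4, which was the highest KO library in 28 of 34 genes, and without it the median change of the collagen genes was 0.19, against 0.51 with all libraries. Without WT1 it was 0.26. The changes of Col1a1, Col1a2 and Col3a1 were 0.77 (adjusted p = 0.228), 0.81 (adjusted p = 0.215) and 0.57 (adjusted p = 0.464). Col4a1 had 6488, 7135 and 8133 in KO hearts and 3328, 6084 and 5789.7 in WT hearts, and Col4a2 had 3523, 3946 and 5011 in KO hearts and 1781, 3453 and 3445 in WT hearts. KO libraries of both genes were above all WT libraries, and neither passed (adjusted p = 0.34 and 0.352). All collagens took 0.4002%, 0.547% and 0.791% of the library in KO hearts and 0.299%, 0.392% and 0.418% in WT hearts. These shares come from a table normalised apart from the 6-month table and were not compared with it.

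Col8a1 was the member of lowest adjusted p at 6 weeks. It had 784, 761 and 528 normalised counts in KO hearts and 313, 460.0 and 309.8 in WT hearts, without overlap (change 0.94, SE 0.23, adjusted p = 0.0916). In this gene KO4 was the lowest KO library. Col14a1 had 271, 255 and 337 in KO hearts and 181, 159.7 and 108 in WT hearts (change 0.96, adjusted p = 0.0939). Col5a3, a type V chain, went the other way, with 316, 404 and 578 in KO hearts and 656, 952 and 878 in WT hearts (change -0.96, adjusted p = 0.103), and was called with a sex term in the model. Col28a1, a collagen known from Schwann cells of peripheral nerve in mice, had 22.4, 51.0 and 34.3 in KO hearts and 5.33, 7.51 and 15.5 in WT hearts (change 1.87, SE 0.51, adjusted p = 0.121). The summed Schwann cell markers ran between 988 and 1810.2 in KO hearts and between 722 and 954 in WT hearts. Of the 6 markers 1 was called higher, against 0.378% of all genes tested. Their part in the Col28a1 values was not tested. At 6 weeks summed mesothelium markers ran between 69.1 and 287 in KO hearts and between 61.2 and 88.5 in WT hearts. Adipocyte markers ran between 157 and 441 in KO hearts and between 60.1 and 171 in WT hearts. Those of activated fibroblasts ran between 1187 and 2099.98 in KO hearts and between 1006 and 1218 in WT hearts. These sums overlapped between the groups, with no tested gene called. The same held for fibroblasts at large, macrophages, mural cells, atria, cartilage and bone, and ventricular cardiomyocytes. Skeletal muscle markers ran between 76.3 and 122 in KO hearts and between 44.8 and 54.4 in WT hearts, without overlap. None of its 2 tested genes was called. Endothelial markers ran between 10949 and 11388 in KO hearts and between 8051 and 9082 in WT hearts, without overlap and with 0 of 8 genes called. Their part in the values of Col4a1 and Col4a2 was not tested. Of the cartilage collagens, Col2a1 was too low to test at 6 weeks, with 4.48, 15.5 and 37.2 in KO hearts and 8.02, 2.14 and 3.32 in WT hearts. Col11a2 had 74.4, 189.8 and 279 in KO hearts and 134, 222 and 177 in WT hearts at that age. It was present at 6 months as well, at 42.4 to 305 in KO+AAV hearts, 23.4 to 84.2 in KO hearts and 18.5 to 110 in WT hearts.

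The difference between the ages was itself tested as the knockout effect at 6 months minus that at 6 weeks. Of 32 collagen genes tested at both ages, 3 had a larger effect at 6 months, 0 a smaller one and 29 did not pass, while over all genes 4.08% were called, 1.99% higher. At an unadjusted p under 0.05 there were 13 of the 32, 12 of them with a larger effect at 6 months, against 17.9% of all genes and 9.05% higher. The 32 include Col8a2 and Col11a1, which passed the filter only through the KO libraries at both ages. They also include Col13a1, Col22a1 and Col28a1, which did so at 6 weeks. The filter bears on the direction of these genes, and the counts were not made without them. The 3 genes called, Col12a1, Col4a4 and Col8a1, were not among them. Col12a1 changed by 4.43 at 6 months and 0.97 at 6 weeks, a difference of 3.47 (SE 0.63, adjusted p = 0.0015). At 6 weeks it had 26.0, 36.9 and 57.0 normalised counts in KO hearts and 10.8, 23.6 and 26.5 in WT hearts, so the groups overlapped then. Col4a4 changed by 1.32 at 6 months and by 0.00 at 6 weeks, when it had 81.5, 92.2 and 119 in KO hearts and 77.8, 96.5 and 119 in WT hearts (difference 1.32, SE 0.33, adjusted p = 0.0235). Col8a1 changed by 2.20 at 6 months and 0.94 at 6 weeks (difference 1.26, SE 0.35, adjusted p = 0.0408). Col8a2 had a difference of 2.13 (adjusted p = 0.0885) and Col6a6 one of -1.77 (adjusted p = 0.109). For the major chains the differences were 0.74 (Col1a1), 0.50 (Col1a2), 0.47 (Col3a1) and 0.24 (Col4a1), and none passed. The atrial transcripts of the 6-week libraries and the separate normalisation of the 2 ages move with this comparison, and their part was not tested.

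**Figure D5:**
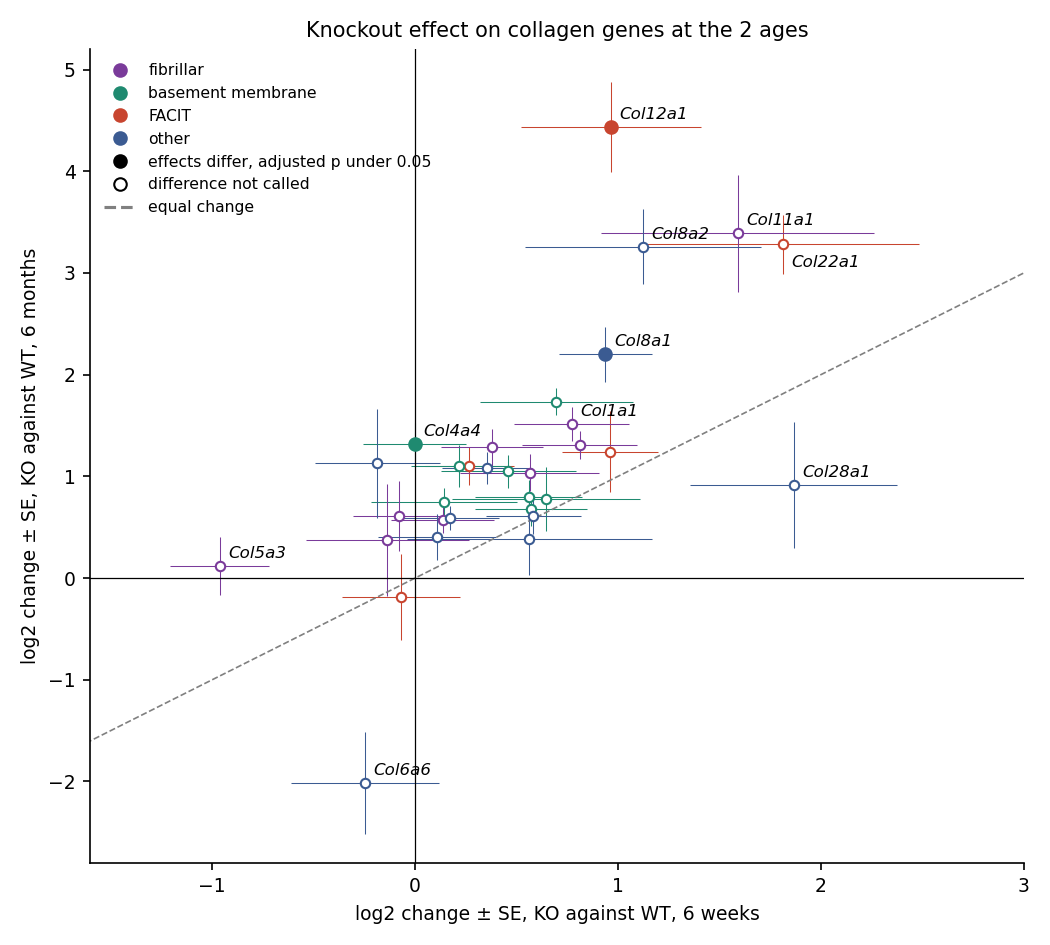
Log2 change in KO against WT hearts of each collagen gene tested at both ages, at 6 weeks (horizontal axis) and at 6 months (vertical axis), with standard errors; the diagonal marks equal effects and filled points passed the test of the difference. Col12a1 lies farthest above the diagonal, at 0.97 and 4.43, and Col6a6 below it, at -0.25 and -2.02.

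Of 12 tested enzymes that process and crosslink collagen, 6 were higher in KO than WT hearts at 6 months and 0 lower (median log2 change 0.85), against 8.13% higher and 8.18% lower over all tested genes. In KO+AAV against KO hearts 7 of the 12 were lower, against 5.69% of all tested genes. Loxl1, Loxl2 and Loxl3, lysyl oxidases that crosslink collagen and elastin, changed by 1.17, 1.23 and 1.84, and Adamts2, which trims the procollagen N-terminus, by 1.29. In KO+AAV against KO hearts their changes were -0.92, -1.73, -1.20 and -1.07. Loxl2 averaged 276 ± 89.7 normalised counts in KO+AAV hearts (SD, n = 4), 891 ± 162 in KO hearts (n = 5) and 385 ± 95.6 in WT hearts (n = 5). Of 19 tested genes that fold and hydroxylate collagen, 4 were higher in KO hearts and 0 lower (median 0.22). P3h2, a prolyl 3-hydroxylase that acts on basement membrane collagen, changed most, by 3.84 (SE 0.39, adjusted p = 1.07e-05), and averaged 60.3 ± 35.8 in KO+AAV hearts, 552 ± 192 in KO hearts and 39.4 ± 20.2 in WT hearts. Serpinh1, the collagen chaperone HSP47, changed by 0.54, Fkbp10 by 0.53 and P3h3 by 0.74, all called. With the vector P3h2 fell by 3.27 on the log2 scale and P3h4 was higher by 0.47.

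Of 8 tested collagen receptors and uptake genes, 2 were higher in KO than WT hearts and 0 lower, against 8.13% and 8.18% of all tested genes. The 2 were Mrc2, the receptor that takes up collagen fragments (1.06), and Itga11, the integrin chain that binds fibrillar collagen on fibroblasts (1.04). Mrc2, Ddr1 and Itgb1 were lower with the vector than in KO hearts, by -0.82, -0.76 and -0.78. Among all genes tested, 5.69% were lower with the vector and 5.55% higher. Of 11 tested genes for collagen breakdown and its inhibitors, 4 were higher and 2 lower (median -0.29). The collagen-cleaving Mmp14, Mmp2 and Ctsk changed by 1.17, 1.18 and 1.03, and the inhibitor Timp4 by -1.48. With the vector 4 of the 11 were lower than in KO hearts: Mmp14 (-1.28), Mmp2 (-1.26), Ctsk (-1.13) and Timp2 (-0.67). Among 15 tested basement membrane partners of type IV collagen, 3 were higher and 1 lower (median 0.19). Of all tested genes 16.3% were called in either direction, and these few calls were not tested against that share. The calls included the laminin chains Lamc3 (2.09) and Lamb3 (-1.88) and Nid2, which links laminin to type IV collagen (0.43). In KO+AAV against KO hearts 1 of the 15 was higher, Lamb3 (1.38), and 2 were lower, among them Lamc1 (-0.95). No gene of these 5 lists was called in KO against WT hearts at 6 weeks or in KO+AAV against WT hearts, where 0.589% and 1.33% of all tested genes were called.

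Markers of activated fibroblasts moved with the collagens at 6 months. Their summed level was 787 to 1819 normalised counts in KO+AAV hearts, 5185 to 12978 in KO hearts and 698 to 1047 in WT hearts, with 4 of 5 tested genes called higher in KO hearts (median log2 change 3.57) and 4 of 5 lower with the vector (median -2.82). Among all genes tested, 8.13% were higher and 8.18% lower in KO hearts, and 5.69% were lower with the vector. Of the markers of fibroblasts at large, 4 of 8 were called higher in KO hearts (median 0.59) and 2 of 8 lower with the vector. Their sum was 28035 to 37216 in KO+AAV hearts, 28917 to 45394 in KO hearts and 26006 to 41450.1 in WT hearts. Endothelial markers, 0 of 8 called in KO against WT hearts, summed to 14185 to 16042 in KO+AAV hearts, 12291 to 13886 in KO hearts and 13252 to 17740.2 in WT hearts. Of 8 mural cell markers 1 was higher and 1 lower, and 0 of 5 macrophage markers were called. Ventricular cardiomyocyte markers summed to 1036350 to 1641910 in KO+AAV hearts, 687849 to 935507 in KO hearts and 1179120 to 1454260 in WT hearts, with 3 of 8 called lower in KO hearts. Atrial markers summed to 7752 to 32735 in KO+AAV hearts, 37420.4 to 126865 in KO hearts and 5916 to 9973 in WT hearts, nearly all of it Nppa, a natriuretic peptide gene. Of the tested atrial genes, Nppa was higher in KO hearts and lower with the vector, and Bmp10 was at 0 in every KO library. The part of cell makeup in the collagen values was not tested. The cartilage and bone markers summed to 44.2 to 110.1 in KO+AAV hearts, 73.1 to 95.6 in KO hearts and 19.95 to 69.2 in WT hearts, with Chad and Ibsp at 0 in every KO+AAV library and Bglap at 0 in every WT library. Adipocyte markers summed to at most 24.7 in any 6-month library, and the skeletal muscle genes Myh4 and Myh2 were at 0 in every KO library of that age.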

How the data were processed

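The authors deposited 1 table of normalised counts per age, a signal that is scaled for depth and no longer whole reads. Per the labels' protocols, libraries were stranded, poly(A)-selected and read as pairs. Per the submitters' processing notes the build was mm10. No source used here gives the aligner, counter, annotation or strand setting. Whole reads could not be recovered, so no count test was run, the depth behind a value is unknown and no counting interval is given. The 6-week columns were assigned to their group only, and 0 columns were left out. No 2 libraries were identical.

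limma 3.58.1 (R 4.3.3, trended variance, two-sided) was fitted to log2(value + 1) of all genes with at least 10 normalised counts in 4 (6 months) or 3 (6 weeks) libraries, each age apart and the 6-month groups in 1 model, with Benjamini-Hochberg adjustment. The age difference used the combined standard error. The code was tested on simulated data. Chain ratios had exact two-sided permutation tests (Python 3.11.15, scipy 1.17.1), whose smallest p is 0.1 at 6 weeks. Nothing states that libraries came from separate mice beyond their replicate labels, so p-values measure the spread between these libraries. Collagen genes, lists and tests were chosen with earlier results of these data known. Every collagen gene may be named, and outside them Sorbs2 and up to 4 genes of smallest p per pathway list and comparison. Marker genes named singly were chosen after their values were seen. Sequences come from GENCODE M21 and RefSeq (GRCm38.p6). Other filters, pseudocounts, scalings, models and libraries left out were tried.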

Additional observations from a re-analysis of the deposited data

Results flagged for a closer look

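In 9 of 123 sets of 4 or 5 library values, 1 library lay far from the rest of its group, where chance gives about 1 in 20. KO+AAV 3 had 26.8 normalised counts of Col4a6, the next library having 22.0. The Col12a1 to Col14a1 ratio was 0.286 in KO+AAV 2 and 0.0999 in the next library. KO 4 had 64.2 of Col4a6 (next 43.3), 55.5 of Col23a1 (next 37.5) and 424 of Col5a3 (next 613). WT 5 had 64.0 of Col4a6 (next 27.5), 166 of Col16a1 (next 124) and 69.2 of Col7a1 (next 25.6), and WT 2 had 4.74 of Col11a1 (next 1.02). Single libraries of all 3 groups thus stood high in Col4a6, the only type IV gene that was not called in KO against WT hearts.

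The knockout effect differed between the ages in 3 genes by the test of the difference. It was larger at 6 months by 3.47 on the log2 scale for Col12a1, by 1.32 for Col4a4 and by 1.26 for Col8a1.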

How the results depend on the processing

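In KO against WT hearts at 6 months, 19 of 24 calls held in all 26 alternatives. Leaving out single libraries gave 21 to 23 genes higher. The 1 lower call became 0 without KO 1 and KO 5 together, the KO libraries of highest Sorbs2 (1648 and 1755). At 6 weeks a sex term gave 1 lower call. In KO+AAV against KO hearts, 12 of 19 calls held in all 26 alternatives, 16 to 21 were lower with single libraries left out, and 12 were lower without Xist-marked libraries. In KO+AAV against WT hearts, the 2 higher calls became 1 with the 2 groups alone, no filter, a pseudocount of 10, quantile normalisation, a sex term, a stricter filter, or without KO 1 and KO 5. They became 0 without Xist-marked libraries and 3 at equal totals, and ran from 1 to 3 with single libraries left out. In the age difference, Col12a1 was called throughout, Col4a4 was lost in 4 of 27 alternatives and Col8a1 in 11. There were 5 higher calls with a pseudocount of 10, 1 to 4 with single libraries left out (1 without 6-week library KO3), and 0 to 1 lower (Col6a6 without KO 4).

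With single libraries left out, the log2 difference in KO against WT hearts ran from -1.03 to -0.86 for Col5a1 to Col1a1, from 2.68 to 3.55 for Col12a1 to Col14a1 and from -0.80 to -0.63 for Col4a1 to Col1a1. In KO+AAV against KO hearts it ran from 0.46 to 0.59, from -3.38 to -2.69 and from 0.51 to 0.72. Without the 20 most abundant genes, all collagens took 0.267% in KO+AAV hearts, 0.516% in KO hearts and 0.250% in WT hearts at 6 months. At 6 weeks they took 0.682% in KO hearts and 0.450% in WT hearts. Equal library totals put the median of all genes at 0.16 (log2) in KO against WT hearts at 6 months, with 1775 higher and 653 lower calls over all genes against 1091 and 1098 as deposited, and left 23 higher and 1 lower collagen calls. At 6 weeks they gave 0.203% higher and 0.0678% lower over all genes, against 0.378% and 0.211% as deposited. The replicate block gave 23 higher and 1 lower in KO against WT hearts, 18 lower in KO+AAV against KO hearts and 2 higher in KO+AAV against WT hearts. The main models did not pair libraries by replicate number. Deviations of like-numbered libraries correlated at -0.391 to 0.253, over 0.1 in 7 of 13 pairs. In 0 of the 13 pairs was the second library the closest of its group to the first, and in 3 the reverse held. Such correlations cannot exclude a pairing of libraries. Unknown depth limits what can be said of genes near 10 normalised counts.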
